A study of Mus musculus with 32 samples.

Results

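A set of 10 adipocyte genes, *Adipoq*, *Lep*, *Retn*, *Cfd*, *Plin1*, *Cidec*, *Lpl*, *Fabp4*, *Pck1* and *Car3*, was followed through mammary tumors and lungs of mice with or without the chloride intracellular channel gene *Clic4*. They were taken by symbol from a list of known fat cell genes, and they are 10 of the 29511 genes counted. The members and the other lists below were chosen with earlier results of these data known. RNA had been sequenced from 32 samples of virgin female FVB/N mice, littermates used at 6 to 8 weeks of age. Cells of 6DT1, a line derived from a mammary tumor of an MMTV-Myc transgenic mouse, had been placed in the fourth mammary fat pad of WT or *Clic4* KO hosts, and the orthograft tumors and the lungs were collected 14 days later. The groups were 6 tumors from KO hosts, 6 tumors from WT hosts, 6 lungs from tumor-bearing KO mice, 6 lungs from tumor-bearing WT mice, and control lungs of 4 KO and 4 WT mice at baseline. The KO was a constitutive one of the host, while the implanted cells had *Clic4* in both host genotypes and came from 1 line.

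White adipocytes store triglyceride in a single large droplet, coated by perilipin 1 and enlarged by proteins of the CIDE family. They take fatty acids from lipoproteins with lipoprotein lipase, carry them inside the cell with fatty acid binding protein 4, and release hormones called adipokines. The mammary gland of the mouse lies in such a fat pad, and lung tissue may carry fat around its large airways and vessels.

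Libraries held 4446323 to 8318711 counts (median 5384934). Levels are given as FPKM, fragments scaled for transcript length and library depth, which can be compared between genes. Fold changes are edgeR estimates on the log2 scale from counts, with their standard error (SE), and adjusted p values are from edgeR's quasi-likelihood test with Benjamini-Hochberg adjustment over all genes tested. *Clic4* was 58.17 to 74.56 FPKM in 14-day KO lungs against 154.58 to 229.65 FPKM in 14-day WT lungs, with a log2 fold change of -1.49 (SE 0.09, adjusted p = 2.06e-09), and -1.45 (SE 0.11, adjusted p = 1.73e-07) in control lungs. In tumors it was 58.92 to 68.98 FPKM in KO hosts and 74.65 to 82.23 FPKM in WT hosts, a log2 fold change of -0.21 (SE 0.05, adjusted p = 0.0343). The study ascribes the *Clic4* reads of KO lungs to parts of the gene outside the excised region. It did not detect CLIC4 protein in fibroblasts from KO lungs. The labelled tissues were checked by their markers. The summed level of 5 alveolar type 2 cell genes was 9874 to 14174 FPKM in lungs and 12.7 to 16.6 FPKM in tumors, and 7 epithelial genes summed to 317 to 539 FPKM in tumors and 100 to 156 FPKM in lungs. *Krt8* and *Krt18*, keratins of simple epithelium, made up most of the epithelial sum, while *Epcam*, an epithelial adhesion protein, was lower in tumors, at 1.35 to 12.63 FPKM against 15.77 to 24.35 FPKM in lungs.

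The promoters of 7 of the 10 genes were in the RefSeq table used here (build GRCm38.p6), as 8 windows of 250 bases before a transcription start. 4 motifs were searched on both strands, namely the TATA box (TATAAA), the nuclear receptor half-site (AGGTCA), the C/EBP core (TTGCNNAA) and the E-box (CACGTG). C/EBP factors are regulators of fat cell differentiation. The C/EBP core was found in 3 of the 8 windows, those of *Lep*, *Plin1* and 1 of 2 starts of *Cidec*, and in 9.56% of the 32851 promoter windows of the table. The other motifs were in none of the 8 windows, against 12.4%, 14.0% and 6.02% of all windows for the TATA box, the half-site and the E-box. The matches are shown with their neighboring bases, 30 bases each, since these are the letters that *Lep*, *Plin1* and *Cidec* had in common. Capitals mark the C/EBP core.
Lep, 55 bases before the start, outside the gene in GENCODE, plus strand, chr6:29060155-29060184: tggccggacagTTGCGCAAgtggcactggg
Plin1, 187 bases before the start, outside the gene, minus strand, chr7:79732945-79732974: ccacctctttaTTGCCTAAacatcccccat
Plin1, 58 bases before the start, within a noncoding part of an exon in GENCODE, minus strand, chr7:79732816-79732845: tctgagaggcaTTGCCCAAgattccctgga
Cidec, 198 bases before the start, within an intron in GENCODE, minus strand, chr6:113434944-113434973: ggagggctctaTTGCTCAAgggcccatggg
The *Lep* match reads the same on both strands. The window of *Adipoq*, to which the other genes are compared below, lies outside the gene on the plus strand, at chr16:23146286-23146535, and held no match, so it is printed without capitals.
Adipoq: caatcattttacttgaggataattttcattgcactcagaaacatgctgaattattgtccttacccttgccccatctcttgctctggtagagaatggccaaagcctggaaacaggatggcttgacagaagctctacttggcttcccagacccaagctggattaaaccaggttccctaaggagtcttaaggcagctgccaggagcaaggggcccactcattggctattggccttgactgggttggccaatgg
A match is a description of these letters only.

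The adipocyte genes were present in every tumor, and 9 of the 10 had a lower median level in the lungs. *Lpl* was the exception, with a median of 31.2 FPKM in the 12 tumors and 42.7 FPKM in the 20 lungs, and a wider list of other fat cell genes, described below, was mixed. Of the 4 genes that define the label, *Adipoq*, *Plin1*, *Cidec* and *Lep*, the first 3 had counts in every sample, and *Lep* had counts in every tumor but none in 2 lungs of each of 3 lung groups. Their summed level was 22.1 to 103 FPKM in tumors and 6.91 to 19.9 FPKM in lungs. For *Adipoq*, *Cfd*, *Fabp4* and *Car3* every tumor lay above every lung in FPKM, 4 of 10 members, while 8.33% of all genes with a value did so. In WT hosts 8 of the 10 members were called higher in tumors than in 14-day lungs with an FDR below 0.05 and over a 2-fold change, where 38.1% of 16115 genes were called in either direction and 15.9% were called higher. In KO hosts 9 of the 10 were called higher, where 37.1% of genes were called and 15.9% were called higher in tumors. The median log2 fold change of the members was 1.66 in WT hosts and 2.72 in KO hosts, and that of all genes was -0.0079 and 0.010. DESeq2 made the same number of calls among the members, 8 and 9. In such bulk samples, fewer adipocytes and less RNA per adipocyte cannot be told apart.

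**Figure D1:**
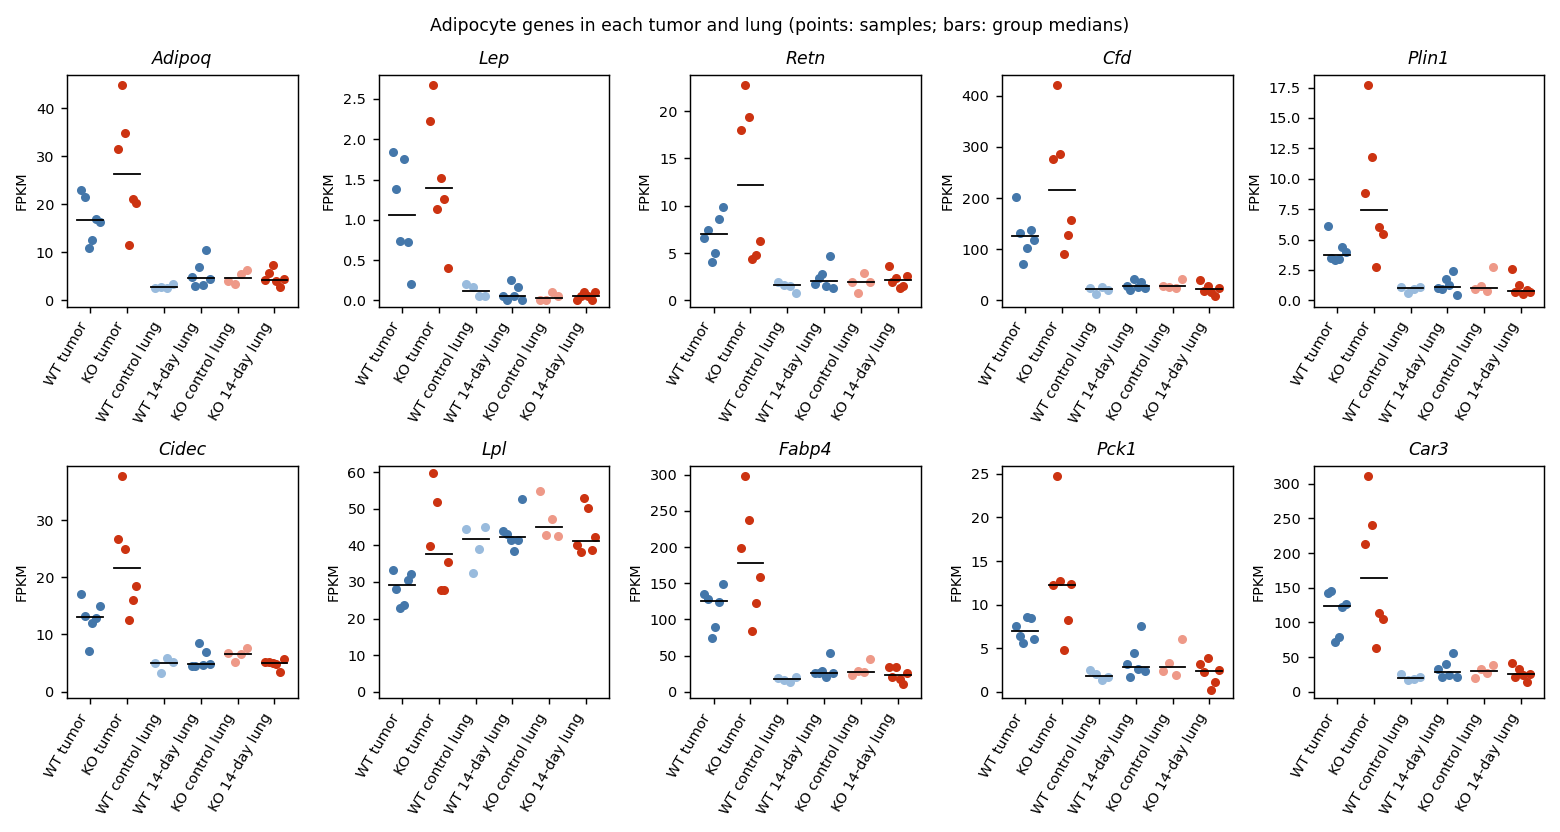
Level in FPKM (vertical axis, linear and drawn for each gene on its own scale) of the 10 adipocyte genes in each of the 32 samples, by group. Points are samples and bars are group medians, and *Lpl* is the gene whose lungs lie at or above most tumors, with only 1 tumor above the highest lung.

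The adipokines are described first. *Adipoq* (ENSMUSG00000022878, chr16:23146536-23158028) encodes adiponectin, a hormone made almost only by fat cells. It was lowest at 10.97, 16.7 at the median and 23.02 FPKM at most in WT tumors, and 11.60, 26.3 and 44.91 FPKM in KO tumors. In 14-day lungs the lowest, median and highest were 2.90, 4.71 and 10.43 FPKM in WT mice and 2.77, 4.30 and 7.46 FPKM in KO mice. All 12 tumors lay above the highest lung, WT 14-day lung 5, and KO tumor 2 was the highest of all samples. The log2 fold change of tumors over 14-day lungs was 1.63 in WT hosts (SE 0.32, adjusted p = 7.04e-05) and 2.63 in KO hosts (SE 0.33, adjusted p = 6.87e-08).

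*Lep* (ENSMUSG00000059201, chr6:29060220-29073877) encodes leptin, the satiety hormone whose level follows fat mass. It was the weakest member, with 0.20, 1.06 and 1.84 FPKM as the lowest, median and highest of WT tumors and 0.40, 1.39 and 2.67 FPKM in KO tumors. These levels rested on 3 to 38 counts per tumor, and lungs had 0 to 5 counts. The tumor and lung ranges met, since WT tumor 6 at 0.20 FPKM lay below WT 14-day lung 3 at 0.25 FPKM, and the other 11 tumors lay above all lungs. Tumors over 14-day lungs had a log2 fold change of 3.17 in WT hosts (SE 0.63, adjusted p = 7.26e-05) and 4.49 in KO hosts (SE 0.66, adjusted p = 9.65e-07), values that depend on the prior count where lungs had so few counts.

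*Retn* (ENSMUSG00000012705, chr8:3655770-3660110) encodes resistin, secreted by mouse fat cells. WT tumors had 4.10, 7.01 and 9.83 FPKM and KO tumors 4.35, 12.2 and 22.77 FPKM as lowest, median and highest. KO tumors fell into a high set of 3 (18.01, 22.77 and 19.36 FPKM in tumors 1, 2 and 3) and a low set of 3 between 4.35 and 6.30 FPKM. The highest lung, WT 14-day lung 5 at 4.70 FPKM, lay above 2 tumors, WT tumor 3 and KO tumor 4. Tumors exceeded lungs by log2 fold changes of 1.56 in WT hosts (SE 0.42, adjusted p = 0.00172) and 2.53 in KO hosts (SE 0.41, adjusted p = 4.94e-06).

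*Cfd* (ENSMUSG00000061780, chr10:79890853-79892655) encodes complement factor D, or adipsin, a serine protease of the alternative complement pathway that mouse fat secretes. Its level was the highest of the members in the tumor at the top, at 420.86 FPKM in KO tumor 2. The lowest, median and highest were 70.37, 125 and 202.46 FPKM in WT tumors and 89.74, 217 and 420.86 FPKM in KO tumors. Lungs ran from 8.16 to 42.45 FPKM and did not overlap with tumors. edgeR gave tumors over lungs a log2 fold change of 2.16 in WT hosts (SE 0.34, adjusted p = 3.14e-06) and 3.42 in KO hosts (SE 0.36, adjusted p = 3.08e-09).

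The lipid droplet proteins followed. *Plin1* (ENSMUSG00000030546, chr7:79720218-79732903) encodes perilipin 1, the coat that guards the droplet from lipases. WT tumors had 3.36, 3.75 and 6.13 FPKM as lowest, median and highest, and KO tumors had 2.71, 7.42 and 17.71 FPKM, so KO tumors spanned a 6.54-fold range and held both the lowest and the highest tumor. The ranges of tumors and lungs met at 2.71 FPKM, in KO tumor 4 and KO control lung 4. Tumors over lungs had a log2 fold change of 1.70 in WT hosts (SE 0.42, adjusted p = 0.000746) and 3.07 in KO hosts (SE 0.42, adjusted p = 2.97e-07).

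*Cidec* (ENSMUSG00000030278, chr6:113424634-113435760) encodes a protein that lets small droplets merge into 1 large droplet. WT tumors had 7.05, 13.1 and 17.13 FPKM and KO tumors 12.57, 21.7 and 37.75 FPKM as lowest, median and highest. Lungs ran from 3.34 to 8.48 FPKM, and 2 lungs lay above the lowest tumor, WT tumor 3. Tumors exceeded lungs by log2 fold changes of 1.23 in WT hosts (SE 0.27, adjusted p = 0.000194) and 2.32 in KO hosts (SE 0.27, adjusted p = 1.70e-08).

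Of the genes of lipid uptake and transport, *Lpl* was called in neither host. *Lpl* (ENSMUSG00000015568, chr8:68880491-68907448) encodes lipoprotein lipase, which frees fatty acids from circulating triglyceride and is made by macrophages and muscle as well as by fat. WT tumors had 22.89, 29.2 and 33.33 FPKM and KO tumors 27.72, 37.7 and 59.88 FPKM as lowest, median and highest, while lungs ran from 32.57 to 54.87 FPKM. Every lung lay above the lowest tumor, and only KO tumor 2 lay above the highest lung. In edgeR the log2 fold change of tumors over 14-day lungs was -0.51 in WT hosts (SE 0.15, adjusted p = 0.0041), under the 2-fold limit, and 0.02 in KO hosts (SE 0.15, adjusted p = 0.912), a value that turned to -0.04 with the size factors of the relative log expression method and to -0.03 in DESeq2.

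*Fabp4* (ENSMUSG00000062515, chr3:10204088-10208576) encodes the fatty acid binding protein of fat cells, also made by capillary endothelium and macrophages. WT tumors had 74.41, 126 and 149.51 FPKM and KO tumors 84.25, 178 and 298.02 FPKM as lowest, median and highest. Lungs ran from 10.33 to 53.16 FPKM, so no lung reached a tumor. edgeR gave tumors over lungs a log2 fold change of 1.96 in WT hosts (SE 0.29, adjusted p = 1.35e-06) and 2.93 in KO hosts (SE 0.30, adjusted p = 2.58e-09). Of 6 macrophage genes, 4 were called higher in tumors and 1 lower in both hosts, with a median log2 fold change of 1.48 in WT and 1.59 in KO hosts, where 15.9% of all genes were called higher. *Mrc1*, the mannose receptor, was higher by 1.85 (SE 0.15) and 1.61 (SE 0.15), and *Lyz2*, lysozyme, was lower by -1.97 (SE 0.18) and -1.76 (SE 0.18). The summed level of the 6 was 465 to 1370 FPKM in tumors and 1519 to 2721 FPKM in lungs. All 6 genes of the endothelial list were called lower in tumors in both hosts, as were 22.3% (WT) and 21.2% (KO) of all genes, and they summed to 31.7 to 52.2 FPKM in tumors and 810 to 974 FPKM in lungs. The part of either cell type in *Fabp4* was not tested.

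Among the enzymes, *Pck1* (ENSMUSG00000027513, chr2:173153048-173159273) encodes cytosolic phosphoenolpyruvate carboxykinase, which in fat makes the glycerol backbone of triglyceride. WT tumors had 5.59, 6.94 and 8.53 FPKM and KO tumors 4.81, 12.3 and 24.70 FPKM as lowest, median and highest. The lungs were the most uneven of any member with counts in all samples, from 0.22 FPKM in KO 14-day lung 4 to 7.59 FPKM in WT 14-day lung 5. That lowest value rested on 3 counts in 1 library, and the next lowest lung, KO 14-day lung 5, had 1.12 FPKM. Above the highest lung lay 7 tumors. Tumors over lungs had a log2 fold change of 1.00 in WT hosts (SE 0.38, adjusted p = 0.0194), a 1.99-fold change and so not called, and 2.59 in KO hosts (SE 0.39, adjusted p = 1.69e-06). With the replicate number as a block, the value in WT hosts was 1.07 and was called. It also passed the 2-fold limit in 5 of the 12 fits that left out 1 sample, with 1.29 (adjusted p = 0.00384) without WT 14-day lung 5, and 1.03 to 1.06 without WT 14-day lung 3 or WT tumor 2, 3 or 6, and over the 12 fits it ran from 0.86 to 1.29. In those 5 fits 38.5%, 38.3%, 38.8%, 38.1% and 39.1% of all genes were called, without lung 5, lung 3 and tumors 2, 3 and 6 in turn.

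*Car3* (ENSMUSG00000027559, chr3:14863512-14872523) encodes carbonic anhydrase 3, abundant in fat and in slow skeletal muscle. WT tumors had 71.86, 124 and 144.93 FPKM and KO tumors 63.65, 163 and 310.96 FPKM as lowest, median and highest. Lungs ran from 13.32 to 55.36 FPKM and did not overlap with tumors. Tumors exceeded lungs by log2 fold changes of 1.84 in WT hosts (SE 0.33, adjusted p = 1.87e-05) and 2.81 in KO hosts (SE 0.34, adjusted p = 4.81e-08). The skeletal muscle list summed to 3.99 to 81.9 FPKM in tumors and 9.03 to 20.9 FPKM in lungs, and its part in *Car3* was not tested.

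**Figure D2:**
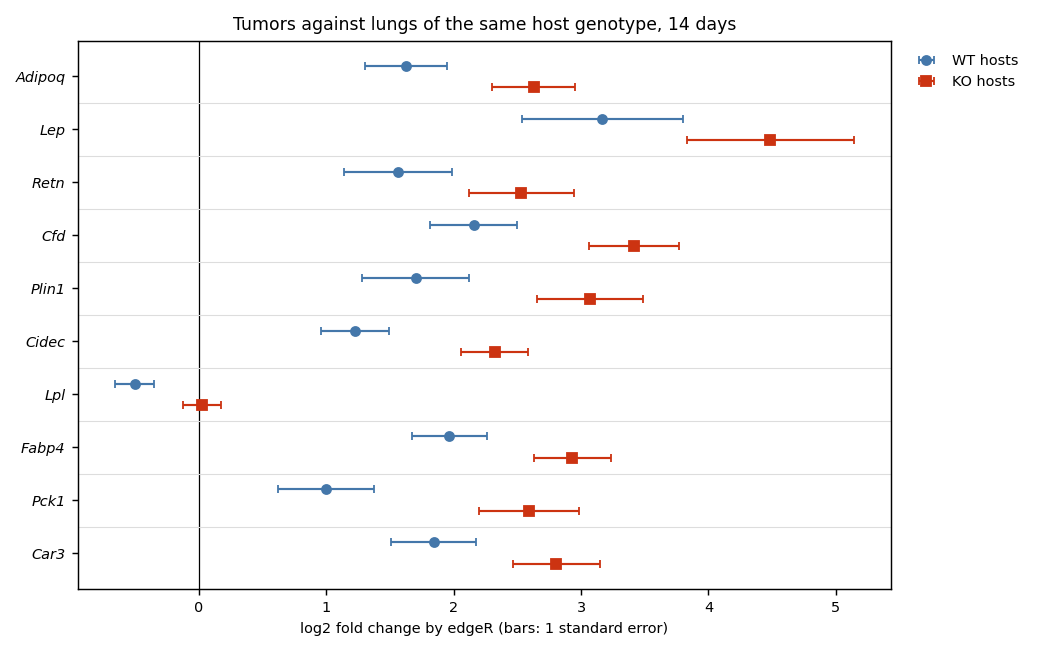
Log2 fold change of tumors over 14-day lungs (horizontal axis) for each member (vertical axis), in WT hosts (circles) and KO hosts (squares), with bars of 1 SE. 9 members lie to the right of 0 in both hosts, and *Lpl* lies at -0.51 in WT hosts and at 0.02 in KO hosts.

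The signed log2 fold change of tumors over lungs was higher in KO than in WT hosts for each of the 10 members, by 0.53 (*Lpl*) to 1.59 (*Pck1*), but none of these differences was called. For 9 members this was a larger excess in tumors, while *Lpl* went from below 0 in WT hosts to near 0 in KO hosts. At an FDR of 0.05, edgeR and DESeq2 both called 0 of 10 members, where edgeR called 0.707% of 16115 genes. With an unadjusted p below 0.05 there were 8 of 10 members, all but *Lep* and *Retn*, against 10.9% of all genes. The smallest adjusted p was 0.228, of *Pck1*. This comparison was added after the data had been seen.

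The question of the host was then put to the tumors alone. All 10 members had a higher fitted level in tumors from KO hosts than in tumors from WT hosts, and none passed an FDR of 0.05 with a 2-fold change in edgeR, where 1.06% of 13830 genes did. The log2 fold change ran from 0.56 (*Lpl*, SE 0.18, adjusted p = 0.145) to 1.13 (*Plin1*, SE 0.36, adjusted p = 0.131), with a median of 0.82, and the median of all genes was -0.0098. An unadjusted p below 0.05 was reached by 8 members, and 8.95% of all genes had such a p and were higher in KO hosts. *Lep* (0.72, SE 0.47) and *Car3* (0.68, SE 0.32) did not reach it. At the looser limits used for the lungs, an FDR of 0.25 and a 1.5-fold change, 6 members (*Adipoq*, *Plin1*, *Cidec*, *Cfd*, *Pck1* and *Fabp4*) were called higher, against 3.17% of all genes. That limit was applied to tumors after the data had been seen. DESeq2 called 1 member, *Plin1*, with a log2 fold change of 1.15 (DESeq2 adjusted p = 0.0326), where it called 1.25% of the 13830 genes.

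Tumors from KO and WT hosts overlapped in FPKM for every member. Among the droplet genes, *Cidec* had a log2 fold change of 0.92 (SE 0.29, adjusted p = 0.129), with WT tumors at 17.13, 13.24, 7.05, 12.06, 12.96 and 14.90 FPKM and KO tumors at 26.68, 37.75, 24.98, 12.57, 15.94 and 18.41 FPKM in replicates 1 to 6. KO tumors 1, 2, 3 and 6 lay above every WT tumor, and KO tumors 4 and 5 lay within the WT range. Among the adipokines, *Adipoq* had a log2 fold change of 0.76 (SE 0.28, adjusted p = 0.189), *Cfd* of 0.89 (SE 0.33, adjusted p = 0.212) and *Retn* of 0.89 (SE 0.42, adjusted p = 0.321). For these 3 genes KO tumors 1, 2 and 3 lay above all WT tumors and the other KO tumors did not. *Pck1* had 0.87 (SE 0.29, adjusted p = 0.144) and *Fabp4* 0.69 (SE 0.27, adjusted p = 0.227), and their groups overlapped too.

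The same tumors were high or low for nearly all members. KO tumor 2 ranked first of the 12 for all 10 genes, and KO tumors 1 and 3 were each among the highest 3 for 9 genes. KO tumor 4 and WT tumor 3 were each among the lowest 3 for 9 genes, and WT tumor 4 for 7. Summed over the members, the level was 1240 FPKM in KO tumor 2, 921 in KO tumor 3 and 827 in KO tumor 1, against 271 FPKM in WT tumor 3 and 303 in KO tumor 4. *Lep* kept this order least, with KO tumor 6 ranked 11 and KO tumor 4 ranked 5.

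**Figure D3:**
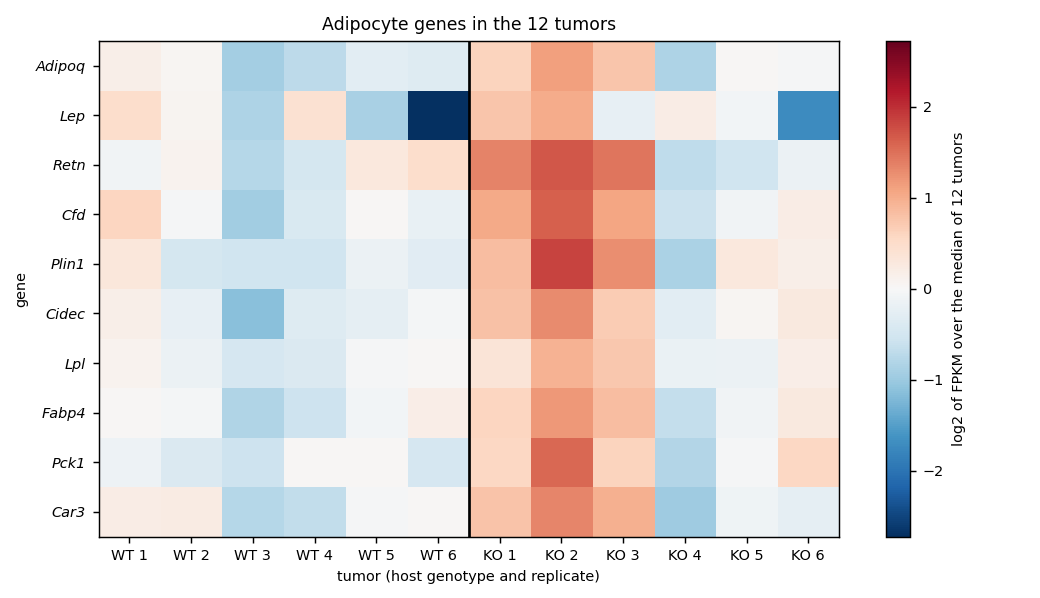
Log2 of each member's FPKM over its median in the 12 tumors (color), with genes as rows and tumors as columns, WT hosts at the left and KO hosts at the right of the line. KO tumors 1, 2 and 3 are above the median for 9 or 10 genes, while KO tumor 4 and WT tumor 3 are below it for nearly all.

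Leaving out single tumors moved the count. Without KO tumor 4, 3 members were called, *Plin1* (1.32, adjusted p = 0.0300), *Cidec* (1.08, adjusted p = 0.0333) and *Pck1* (1.04, adjusted p = 0.0287) in edgeR, where 1.15% of 13990 genes were called, and without any other tumor no member was. The count over all genes ran from 113 to 186 in these fits. Without KO tumor 2, the log2 fold change of every member was at its lowest, from 0.38 (*Lpl*) to 0.78 (*Plin1*).

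Markers of other cells moved in part with these tumors. The brown adipocyte list, 7 genes such as *Ucp1*, summed to 54.6 FPKM in KO tumor 2 and 44.6 in KO tumor 3, against 2.10 to 17.6 FPKM in the other 10 tumors. The skeletal muscle list was highest in KO tumor 1, at 81.9 FPKM. The fibroblast list ranged from 216 to 461 FPKM in KO tumors and from 206 to 407 FPKM in WT tumors, and was lowest in KO tumor 4 and WT tumor 3. Macrophage genes summed to 721 to 1370 FPKM in KO and 465 to 1098 FPKM in WT tumors and were lowest of the KO tumors in KO tumor 2. Neutrophil genes summed to 12.3 to 61.8 FPKM in KO and 22.8 to 37.1 FPKM in WT tumors, with *Ly6g* at 0, and epithelial genes to 317 to 539 and 369 to 511 FPKM. Endothelial genes summed to 31.7 to 52.2 FPKM in KO and 35.3 to 47.4 FPKM in WT tumors, and like the members were highest in KO tumor 2 and lowest in KO tumor 4, with WT tumor 3 the lowest of the WT tumors. Neither edgeR nor DESeq2 called a gene of these lists between the hosts' tumors, and an unadjusted p below 0.05 was reached in edgeR by 15.5% of all genes. In the lists it was reached by 2 of 6 macrophage genes tested, 1 of 4 neutrophil and 1 of 6 fibroblast genes, all higher in KO hosts. It was also reached by 2 of 6 epithelial genes, both lower in KO hosts, and by 0 of 5 endothelial genes. Of the 7 brown adipocyte genes only *Dio2* had enough counts to be tested, and it reached that p, while 2 of the 6 skeletal muscle genes were tested and neither did. The part of these cells in the members' levels was not tested.

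The other genes of the fat cell program were taken as a list of 18. In tumors, 16 were tested and all 16 had a positive log2 fold change in KO over WT hosts, as did 47.7% of all genes. The median of the 16 was 0.79, against -0.0098 for all genes. An unadjusted p below 0.05 was reached by 10, all higher in KO hosts, where 8.95% of all genes had such a p and were higher. None of the 16 was called by edgeR or DESeq2, where edgeR called 1.06% of all genes. *Cd36*, the fatty acid translocase, had an adjusted p of 0.0409 with a log2 fold change of 0.82 (SE 0.20), below the 2-fold limit, and was picked out after its value had been seen. Against the lungs the list was mixed. In WT hosts 2 of the 16 were called higher in tumors and 7 lower, with a median log2 fold change of -0.70, where 15.9% of all genes were called higher and 22.3% lower. In KO hosts 4 were higher and 4 lower, with a median of 0.06, where 15.9% of all genes were higher and 21.2% lower. *Cd36* was lower in tumors by log2 values of -4.34 (WT, SE 0.18) and -3.53 (KO, SE 0.17), *Cdo1*, cysteine dioxygenase, by -3.63 (SE 0.24) and -2.83 (SE 0.23), and *Cebpa*, a transcription factor of fat cells, by -1.54 (SE 0.14) and -1.11 (SE 0.13). *Plin4*, a droplet coat protein, was higher in tumors than in lungs by 1.16 (WT, SE 0.22) and 1.89 (KO, SE 0.22).

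Partners of lipoprotein lipase and receptors of the adipokines formed a list of 10, of which 9 were tested. In both hosts 1 gene was called higher in tumors and 4 lower, against the same 15.9% higher and 22.3% (WT) or 21.2% (KO) lower of all genes. The first was *Angptl4*, an inhibitor of lipoprotein lipase, with a log2 fold change of 1.13 in WT (SE 0.34) and 1.51 in KO hosts (SE 0.34). *Gpihbp1*, which holds the lipase on capillary walls, was lower by log2 values of -4.86 (SE 0.24) and -4.49 (SE 0.23), and *Lepr*, the leptin receptor, by -2.20 (SE 0.10) and -2.34 (SE 0.11). *Vldlr*, a lipoprotein receptor, was lower by -1.57 (SE 0.13) and -1.48 (SE 0.13), and *Cdh13*, a cadherin that binds adiponectin, by -1.32 (SE 0.15) and -1.29 (SE 0.15). Between the hosts' tumors none of the 9 was called by edgeR or DESeq2, and the median log2 fold change was 0.05. An unadjusted p below 0.05 was reached by 1, which was lower in KO hosts, where 15.5% of all genes had such a p in either direction. *Angptl4* was named after its value had been seen, as was *Plin4* above for its direction.

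In the lungs the members were tested in 4 comparisons and their interaction, which share samples. *Lep* had too few counts to be tested there, so 9 members were. In WT mice, 14-day lungs were compared with control lungs to see what a distant tumor changes, and 0 of 9 members were called by edgeR or DESeq2 with an FDR below 0.25 and over a 1.5-fold change, where edgeR called 0.574% of 16029 genes. All 9 log2 fold changes were positive, with a median of 0.63 and a median of all genes of 0.0032, and 3 had an unadjusted p below 0.05, against 11.8% of all genes. *Adipoq* was 2.67, 2.76, 2.62 and 3.51 FPKM in the control lungs and 2.90, 4.71 and 10.43 FPKM as lowest, median and highest at 14 days. The groups overlapped through WT control lung 4, which lay above 2 of the 14-day lungs. Its log2 fold change was 0.94 (SE 0.35, adjusted p = 0.305), and without WT 14-day lung 2 it was 1.07 (adjusted p = 0.24) and called, where 0.722% of 16064 genes were. Without WT 14-day lung 5 it was 0.66 (adjusted p = 0.438) and not called.

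*Fabp4* was 19.32, 16.45, 13.24 and 20.85 FPKM in WT control lungs and 19.84, 26.0 and 53.16 FPKM at 14 days, with a log2 fold change of 0.76 (SE 0.29, adjusted p = 0.318). The lowest 14-day lung lay within the control range and the other 5 lay above it. *Car3* was 26.13, 17.09, 18.76 and 21.60 FPKM in control lungs and 21.42, 28.1 and 55.36 FPKM at 14 days, with 0.63 (SE 0.28, adjusted p = 0.384), and its groups overlapped. *Pck1* had the other large value, 0.94 (SE 0.46, adjusted p = 0.434). WT 14-day lungs 5 and 3 carried the highest values, and lung 5 was the highest of the 20 lungs for 5 members and lung 3 for 2. Without lung 5 the log2 fold change was 0.49 for *Fabp4*, 0.41 for *Car3* and 0.60 for *Pck1*.

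In KO mice, 0 of 9 members were called by edgeR or DESeq2 between 14-day and control lungs, where edgeR called 0.262% of genes. Of the 9 log2 fold changes 8 were negative, with a median of -0.29 and a median of all genes of 0.0039, and only *Cidec* had an unadjusted p below 0.05, against 8.64% of all genes. The count and the median moved with single lungs. Without KO control lung 4, 5 of 9 were negative with a median of -0.09, and *Adipoq*, *Plin1* and *Car3* turned positive. Without KO 14-day lung 5, 6 were negative with a median of -0.14, and without KO 14-day lung 4, 8 were with a median of -0.19. *Cidec* was 6.68, 5.22, 6.55 and 7.58 FPKM in KO control lungs and 3.37, 5.05 and 5.63 FPKM as lowest, median and highest at 14 days, with a log2 fold change of -0.38 (SE 0.17, adjusted p = 0.556). The groups overlapped through KO control lung 2. *Pck1* was 2.34, 3.28, 1.90 and 6.08 FPKM in controls and 0.22, 2.37 and 3.88 FPKM at 14 days, with -0.61 (SE 0.46, adjusted p = 0.742), and overlapped as well. That value rested in part on single lungs, being -0.15 without KO control lung 4 and -0.86 without KO 14-day lung 3.

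**Figure D4:**
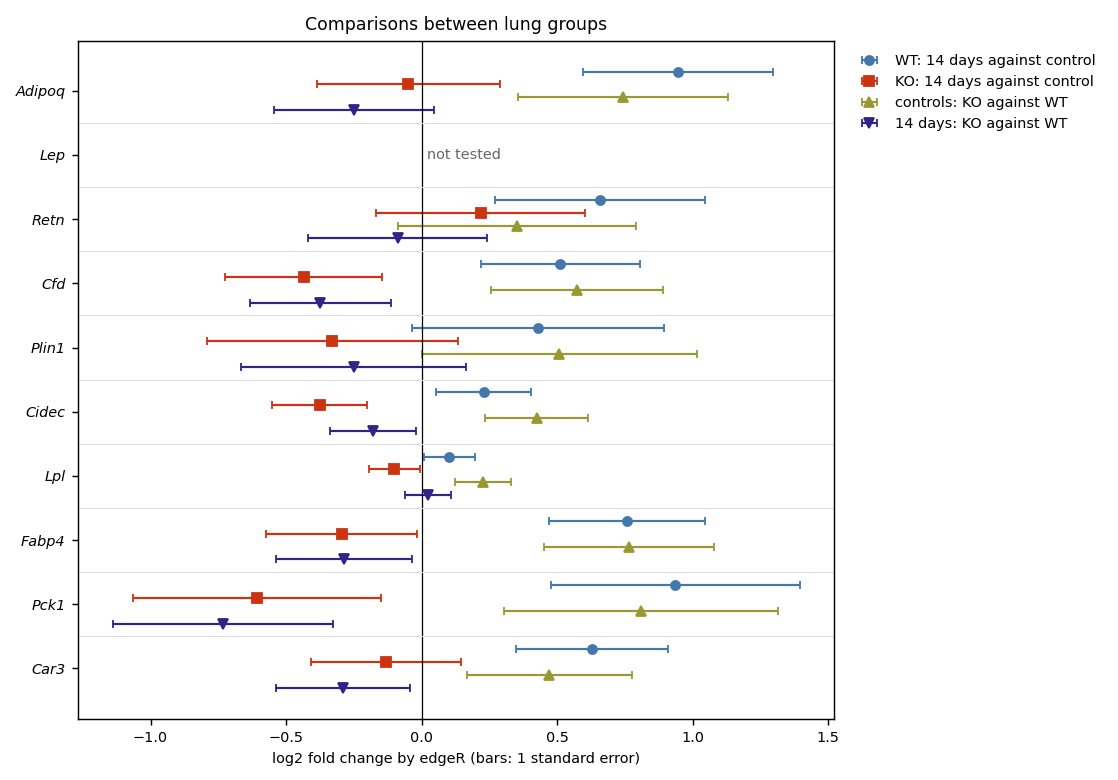
Log2 fold change (horizontal axis, bars of 1 SE) of each member (vertical axis) in the 4 comparisons between lung groups, which share samples, and *Lep* was not tested. Values for 14-day against control lungs lie above 0 for 9 of 9 members in WT mice and below 0 for 8 of 9 in KO mice, and none was called.

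The change with a tumor was lower in KO than in WT mice for all 9 members, by -0.20 (*Lpl*) to -1.54 (*Pck1*, SE 0.65), with a median of -0.76 and a median of all genes of 0.00073. In the test of this interaction edgeR called 0 of 9 members at an FDR of 0.25, where it called 0.0499% of genes, DESeq2 also called 0, and 4 members (*Cidec*, *Cfd*, *Pck1* and *Fabp4*) had an unadjusted p below 0.05, against 8.53% of all genes. *Fabp4* had the smallest adjusted p, 0.484, with -1.05 (SE 0.40).

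Between the genotypes, edgeR and DESeq2 called 0 of 9 members in control lungs, where edgeR called 0.231% of genes, and 0 of 9 in 14-day lungs, where it called 0.212%. In control lungs all 9 were higher in KO mice with a median of 0.51, and 3 had an unadjusted p below 0.05 (*Cidec* 0.43, *Lpl* 0.23 and *Fabp4* 0.77), against 11.6% of all genes. *Fabp4* was 23.11, 28.41, 26.64 and 45.32 FPKM in the 4 KO control lungs, all above the 4 WT control lungs, with an adjusted p of 0.369 in edgeR. KO control lung 4 was the highest of the 4 for 7 members. At 14 days 8 of 9 were lower in KO mice with a median of -0.25, and 0 had an unadjusted p below 0.05, against 8.34% of all genes. Without WT 14-day lung 5, 5 of the 8 members then tested were lower with a median of -0.045, and *Adipoq* and *Plin1* turned to 0.033 and 0.019. Without KO 14-day lung 5, 7 of 9 were lower with a median of -0.14, and without KO 14-day lung 1, 8 of 9 with a median of -0.40.

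Other cells differed between the lungs as well. Neutrophil genes summed to 160 to 769 FPKM in WT and 55.7 to 803 FPKM in KO 14-day lungs, and to 68.6 to 181 FPKM in control lungs. Of the 5 tested, edgeR called 3 higher at 14 days than in control lungs in WT mice and 2 in KO mice, where it called 0.574% and 0.262% of all genes. DESeq2 called 4 of the 5 in each genotype. In WT mice edgeR also called *Marco*, a scavenger receptor of alveolar macrophages (-1.42, SE 0.25, adjusted p = 0.0935), and *Col1a1*, a collagen of fibroblasts (-0.73, SE 0.20, adjusted p = 0.161), lower at 14 days, and DESeq2 called *Col1a1* but not *Marco*. Between genotypes at 14 days *Col1a1* was called higher in KO mice by edgeR (0.65, SE 0.18, adjusted p = 0.205) and by DESeq2. The cardiac muscle list of 5 genes summed to 222 to 290 FPKM in KO and 278 to 415 FPKM in WT 14-day lungs, and to 217 to 313 and 292 to 337 FPKM in KO and WT control lungs. At 14 days, where 8 of 9 members had a lower fitted level in KO mice, 3 of the 5 cardiac genes had an unadjusted p below 0.05, against 8.34% of all genes. Of these 5, *Myh6*, a heart myosin, was called lower in KO mice by edgeR and by DESeq2, with an edgeR log2 fold change of -0.66 (SE 0.10, adjusted p = 0.0031). In this comparison edgeR called 0.212% of all genes. In tumors the list summed to 16.1 to 37.05 FPKM, with *Myh6*, *Actc1* and *Myl7* at 0 in every tumor. The brown adipocyte list was highest in KO control lung 4, at 84.75 FPKM, against 27.71 to 48.13 FPKM in the other lungs. These sums rested on part of the list. In WT control lungs *Ucp1* and *Elovl3* were at 0 and 4 of the 7 genes were under 1 FPKM in every lung. The alveolar macrophage list of 5 genes summed to 292 to 436 FPKM in KO control lungs, all above the WT control lungs at 145 to 280 FPKM. The sum went the same direction as *Lpl*, *Fabp4* and the other members there, but the genes did not move evenly. Their median log2 fold change was 0.078, with 4 positive and 1 negative, and 1 had an unadjusted p below 0.05, against 11.6% of all genes. *Chil3*, a secreted chitinase-like protein, was called higher in KO control lungs by edgeR (0.89, SE 0.20, adjusted p = 0.168) and by DESeq2. There edgeR called 0.231% of all genes. At 14 days the list summed to 234 to 437 FPKM in KO and 187 to 285 FPKM in WT lungs, and *Marco* was called higher in KO mice by edgeR (0.86, SE 0.24, adjusted p = 0.234) and not by DESeq2. The part of these cells in the members' levels was not tested.

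Lastly, the members were compared with *Adipoq* from sample to sample, as log2 of TMM-normalized CPM plus 1 with each group's mean removed, over 18 pairs of gene and tissue with two-sided permutation tests within groups. In the 12 tumors, 8 of the 9 other members were correlated with *Adipoq* at an adjusted permutation p below 0.05. The closest was *Car3*, with a Pearson r of 0.98 (permutation p = 1e-05, the smallest these permutations can give, adjusted p = 0.00018) and a Spearman rho of 0.97 (permutation p = 2e-05). *Cfd* followed with r = 0.97 (adjusted permutation p = 0.00063, rho = 0.94), *Cidec* with 0.96 (0.000675, rho = 0.89), *Fabp4* with 0.95 (0.000675, rho = 0.92) and *Plin1* with 0.94 (0.00137, rho = 0.91). *Lpl* had r = 0.89 (adjusted permutation p = 0.00394, rho = 0.92) and *Retn* 0.87 (0.00441, rho = 0.86). *Lep* had r = 0.61 (adjusted permutation p = 0.058, rho = 0.61).

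Without the 2 tumors farthest from the median in *Adipoq*, KO tumors 2 and 4, r stayed between 0.78 and 0.96 for the 7 genes other than *Pck1* and *Lep*. For *Pck1*, r was 0.80 (adjusted permutation p = 0.0233) with a rho of 0.47, and fell to 0.26 without them, so the relation rested on those 2 tumors. Within WT tumors alone, r was 0.95 for *Car3*, 0.94 for *Cfd* and 0.07 for *Pck1*. All values of 1 tumor come from 1 library, so they share its depth and its makeup of cells.

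In the 20 lungs r ranged from 0.18 to 0.81. *Fabp4* had r = 0.81 (adjusted permutation p = 0.00258, rho = 0.77), *Car3* 0.76 (0.00441, rho = 0.71), *Cidec* 0.73 (0.00394, rho = 0.70) and *Cfd* 0.65 (0.0106, rho = 0.63). *Lep* had r = 0.63 (adjusted permutation p = 0.0106, rho = 0.63), *Pck1* 0.61 (0.0265, rho = 0.71, but r = 0.53 and an unadjusted permutation p of 0.0646 with a pseudocount of 0.1) and *Retn* 0.53 (0.0456, rho = 0.49). *Plin1* (r = 0.43, adjusted permutation p = 0.12, rho = 0.38) and *Lpl* (r = 0.18, adjusted permutation p = 0.496, rho = 0.09) did not pass. Without WT 14-day lung 5 and KO 14-day lung 5, r was 0.41 for *Cfd*, 0.17 for *Retn* and 0.47 for *Car3*. Their unadjusted permutation p were 0.109, 0.538 and 0.101, so those 3 relations did not pass 0.05 without these lungs. Leaving out the lungs farthest in *Adipoq* also narrows its spread. For *Fabp4* r was then 0.52 (unadjusted permutation p = 0.0491). In the 4 WT control lungs alone, where *Adipoq* varied little, r was negative for 6 members.

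**Figure D5:**
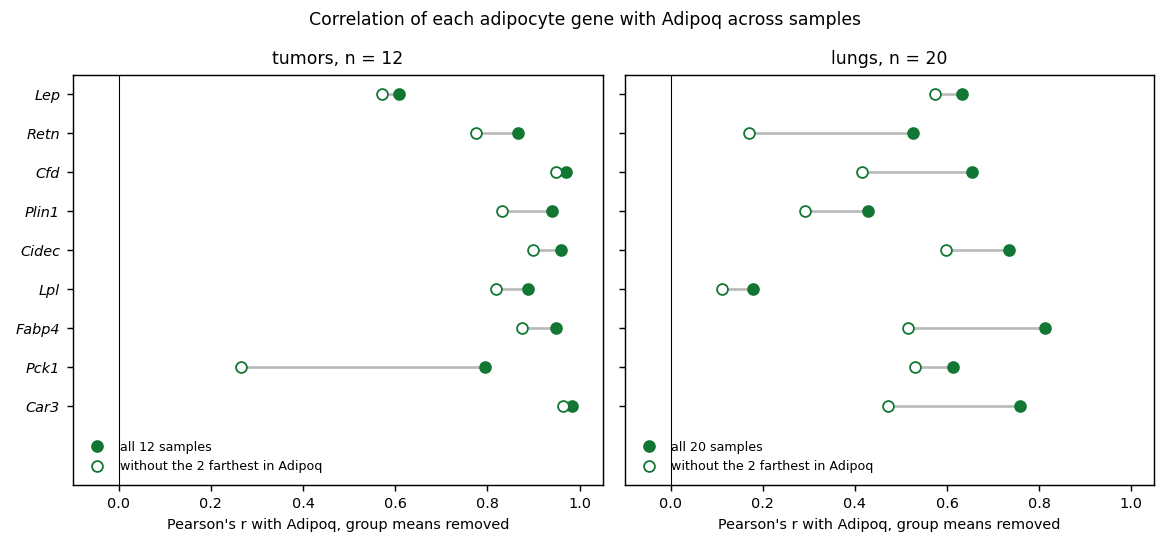
Pearson's r with *Adipoq* (horizontal axis) of each other member (vertical axis) in 12 tumors (left) and 20 lungs (right), for all samples (filled) and without the 2 samples farthest in *Adipoq* (open). In tumors the r of *Pck1* drops from 0.80 to 0.26, and in lungs that of *Retn* from 0.53 to 0.17.

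Ranked among all 13829 other genes tested in tumors, *Car3*, *Cfd*, *Cidec* and *Fabp4* were the 4 closest to *Adipoq*, and *Plin1* was at rank 7. The genes outside the members with the highest r were *Ptprb* (0.95), a phosphatase of endothelium, *Acvr1c* (0.95), an activin receptor of fat cells, *Slc36a2* (0.92), an amino acid transporter, *Dlc1* (0.92) and *Cdo1* (0.91). In the lungs *Fabp4* and *Car3* were the closest of 16028 genes and *Cidec* was at rank 6, and outside the members the highest were *Snhg20* (0.75), *Sucla2* (0.75), *Stard5* (0.73), *Itgb1bp2* (0.73) and *Me1* (0.73), malic enzyme. *Lpl* was at rank 23 in tumors and at rank 3930 in lungs.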

How the data were processed

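Bulk RNA from frozen tumors and lungs was sequenced as stranded mRNA libraries. The authors aligned the reads to GRCm38 (mm10) with STAR and deposited RSEM's expected counts per gene, given as unnormalized whole numbers. They also deposited RSEM's FPKM, which is scaled for transcript length and depth and was used here for levels only. Rn7s1, Rn7s2 and Rn7sk took 58.1 to 70.2% of each sample's FPKM.

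The members and lists were chosen with earlier results of these data known. Samples were grouped by their titles, and replicates of a group were separate animals. A tumor and a 14-day lung may come from the same animal, which the titles do not say. The quasi-likelihood test of edgeR 4.0.16 (R 4.3.3) with TMM normalization was run on genes past filterByExpr in 12 tumors (13830 genes), 20 lungs (16029) and 24 tumors and 14-day lungs together (16115), with one mean per group and Benjamini-Hochberg adjustment. The study states limits of 0.05 (FDR) with 2-fold for the hosts' tumors, and 0.25 with 1.5-fold for 14-day against control lungs, and these were used for calls. The first pair was also used for tumors over lungs and the second between genotypes in lungs, and the interaction and the host difference used 0.25 and 0.05 with no fold limit. The SE is the log2 fold change divided by the square root of F. Named are all members, up to 4 called genes per list and comparison by smallest p, and the 5 genes most like *Adipoq*. Correlations used 100000 permutations and a pseudocount of 1.

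The alternatives were DESeq2 1.42.0, RLE size factors, no filter, the FDR limit alone, the replicate number as a block, each sample left out in turn, log2(FPKM + 1) and a pseudocount of 0.1. The looser limits in tumors and the test of the host difference in tumors over lungs were chosen after the data had been seen. Each fit was tested on simulated data first. Gene positions are from GENCODE M21. No protein sequence was used here. Python 3.11.15 with pandas 2.3.3, scipy 1.17.1 and matplotlib 3.10.9 was used for the rest. With 4446323 to 8318711 counts per sample, a gene such as *Lep* is known only to its counting error in lungs.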

Additional observations from a re-analysis of the deposited data

Results flagged for a closer look

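In each of the 60 combinations of a member and a group, the highest and the lowest sample were compared with their nearest neighbor by Dixon's criterion, which chance passes in about 1 of 20 groups, and 5 passed. *Adipoq* was 3.51 FPKM in WT control lung 4, against 2.76 FPKM in the nearest of the other 3. *Plin1* was 6.13 FPKM in WT tumor 1, with the next at 4.37, and 2.61 FPKM in KO 14-day lung 1, with the next at 1.27. *Cidec* was 3.37 FPKM in KO 14-day lung 5, the lowest of its group, with the next at 4.82. *Fabp4* was 53.16 FPKM in WT 14-day lung 5, with the next at 28.74.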

How the results depend on the processing

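Counts of genes called were sensitive to the fit, more so in lungs than in tumors, and the cause was not tested. DESeq2 called 1 member and 173 genes between the hosts' tumors, and 22 genes in WT lungs, 7 between genotypes at 14 days, 20 in control lungs, 195 for the interaction and 197 for the host difference of tumors over lungs. Without the filter, 58 genes were called in WT lungs and 7 in control lungs. With the FDR limit alone, the counts were 347 in tumors, 373 in WT lungs, 169 in KO lungs, 138 between genotypes at 14 days, 156 in controls, 12165 for WT and 11957 for KO tumors over lungs. The looser limits gave 532 genes and 6 members in tumors. With the replicate block, 152 genes were called in WT lungs, 129 in KO lungs, 1 for the interaction and 72 for the host difference, and the block changed no member's call except that of *Pck1* in WT tumors over lungs, which 5 of 12 fits without 1 sample also called. The numbers were not taken to pair animals, since the titles do not say which tumors and lungs came from 1 mouse. Deviations of same-numbered tumors and 14-day lungs correlated at 0.030 to 0.176 in KO mice and -0.010 to 0.068 in WT mice. A tumor's own number was its best match among these lungs in 5 of 6 KO and 2 of 6 WT tumors. A pairing, if there was one, was left out of the main tests of tumors over lungs. Leaving out 1 sample gave 0 to 3 members in tumors, 0 to 1 in WT lungs, and 11 to 176 genes in WT lungs, 2 to 60 in KO lungs, 22 to 52 between genotypes at 14 days, 2 to 76 in controls, 1 to 127 for the interaction and 46 to 201 for the host difference.

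*Lpl* in KO tumors over lungs was 0.02 on the log2 scale, -0.032 in DESeq2, -0.031 with the replicate block, -0.035 with RLE factors and -0.15 to 0.11 without single samples. Signs also turned without single samples for KO lungs at 14 days against control in *Adipoq* (-0.25 to 0.12), *Plin1* (-0.74 to 0.22), *Retn* (-0.011 to 0.50) and *Car3* (-0.30 to 0.025), for genotypes at 14 days in *Adipoq* (-0.45 to 0.033), *Plin1* (-0.65 to 0.019), *Retn* (-0.24 to 0.0021) and *Lpl* (-0.026 to 0.064), and for control lungs in *Plin1* (-0.039 to 0.72). None of these was called. The number of members lower at 14 days in KO lungs, 8 of 9, was 5 without KO control lung 4, and that between genotypes at 14 days, also 8 of 9, was 5 of 8 without WT 14-day lung 5. With a pseudocount of 0.1 the correlation of *Pck1* with *Adipoq* in lungs lost its call (r = 0.53, unadjusted permutation p = 0.0646).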
